A study of Mus musculus with 22 samples.

Results

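The cytosolic ribosomal protein genes were followed through 3 stages of Myc-driven B cell lymphoma in mice. Members were the probe sets that the array's annotation pairs with a symbol of the form Rps, Rpl or Rplp followed by a digit, with the S6 kinases left out. This gave 99 of 22690 probe sets, which stood for 48 of 12393 genes with a probe set of their own. They comprised 22 genes of the small subunit (Rps), 24 of the large subunit (Rpl) and 2 of the P stalk (Rplp). Of the 99 probe sets, 87 passed a filter on dim signal (log2 above 4 on at least 4 of 22 arrays) and 12 did not. The 87 stood for 45 genes, and each gene was read through its brightest probe set on average over the 22 arrays. Rpl39l, Rpl3l and Rps4l, paralogues of Rpl39, Rpl3 and Rps4x, did not pass, and their mean log2 intensities were 2.70, 3.06 and 2.26. The pattern also took in Rps15a-ps6, which the annotation names as a pseudogene.

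The study measured C57Bl/6 mice on Affymetrix MOE430A arrays, 1 array per sample. There were 4 arrays of wild type B220+ cells, 5 of premalignant B220+ lymphocytes of Eμ-Myc transgenic mice and 13 of malignant lymphocytes from Eμ-Myc lymphomas of independent mice. The transgene drives Myc from the immunoglobulin heavy chain enhancer, so that expression starts early in the B lineage. B cells were taken from marrow or spleen on magnetic beads against B220 or IgM, and the labels give neither the tissue nor the bead of each array. Wild type and premalignant animals were littermates of 4 to 6 weeks, and the labels give the same age for the lymphomas. All samples are labelled as biological replicates, but separate mice are stated for the lymphomas only, so that p-values cover just the spread between these samples.

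Ribosomal proteins form the protein part of the small and large subunits, and each ribosome needs them in balanced amounts. Their mRNAs are among the most abundant in growing cells and carry a terminal oligopyrimidine tract, a run of C and T at the 5′ end through which growth signals control their translation. Myc is known to raise ribosome production through ribosomal RNA synthesis, assembly factors and ribosomal protein genes, and heterozygous loss of the large subunit gene Rpl24 is known to slow lymphoma in Eμ-Myc mice.

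The sequences around 6 start sites are shown because the results turn on these genes. Rplp0 and Rpl4 were the bright members with the largest rises in lymphomas against wild type cells, though Rpl41 rose as much as Rpl4 (log2 change 0.46 each). Rps27l and Rps27, and Rpl22l1 and Rpl22, are paralogue pairs. Each runs 5′ to 3′ on the gene's strand from 60 bases before the start to 40 bases from it, taken from RefSeq on GRCm38.p6, and capitals mark the longest run of C and T within 20 bases of the start.
Rplp0, chr5:115559407-115559506, + strand: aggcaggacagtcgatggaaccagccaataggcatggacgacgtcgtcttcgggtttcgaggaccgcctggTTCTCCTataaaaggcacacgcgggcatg
Rpl4, chr9:64173327-64173426, + strand: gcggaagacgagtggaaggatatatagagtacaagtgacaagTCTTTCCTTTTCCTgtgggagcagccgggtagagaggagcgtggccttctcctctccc
Rps27l, chr9:66946026-66946125, + strand: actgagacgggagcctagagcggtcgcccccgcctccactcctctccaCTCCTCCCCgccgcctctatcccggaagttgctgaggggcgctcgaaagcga
Rps27, chr3:90213609-90213708, - strand: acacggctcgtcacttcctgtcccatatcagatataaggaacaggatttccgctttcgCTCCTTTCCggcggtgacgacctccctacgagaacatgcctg
Rpl22l1, chr3:28805448-28805547, + strand: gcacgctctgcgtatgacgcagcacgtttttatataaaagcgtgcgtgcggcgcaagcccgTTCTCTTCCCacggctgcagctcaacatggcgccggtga
Rpl22, chr4:152325666-152325765, + strand: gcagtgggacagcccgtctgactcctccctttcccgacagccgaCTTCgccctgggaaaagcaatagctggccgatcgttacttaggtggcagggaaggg
Rps27l and Rpl22 have a further annotated start, which is not shown. RefSeq promoter windows matched 41 of the 48 genes, with 49 windows of 300 bases (250 before the start and 50 after). A C and T run of at least 7 bases on the gene's strand, within 20 bases of the start, was present for 65.9% of these genes, against 27.5% of all 27025 genes with a window. The letters CTTTC occurred in the same stretch for 29.3% of the members and 6.44% of all genes, and overlap with the run where both are present. The E-box CACGTG, which reads the same on both strands and was searched over the whole window, occurred in 10.2% of member windows and 7.15% of all 32851 windows. Within 20 bases of the start, all 6 sequences shown but that of Rpl22 hold a run of at least 7 bases. Rpl4 and Rps27 hold CTTTC in that run. The Rpl22 sequence has a longer C and T run that holds CTTTC, but it lies further upstream, outside that stretch.

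Ribosomal protein probe sets made up much of the bright end of the arrays, with 35 to 40 members among the 100 brightest probe sets of each of the 22 arrays. Of the 100 probe sets with the highest mean signal, 40 were members and another 43 were paired with several symbols that include a ribosomal protein gene. In all, 102 probe sets with several symbols named a ribosomal protein gene, and they are not members because no gene can be named from them. Of the 46 tested genes with a mean log2 intensity above 12, 30 were members, while 34 of the 45 tested members exceeded 10. The brightest probe set of any kind reached log2 13.72 to 14.16 on an array, so these members lie close to the upper end of the measured range.

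The summed signal of the 45 members rose only slightly across the stages, while Myc changed far more. The members took 7.33 ± 0.28% of an array's summed signal in wild type cells (SD, n = 4), 7.74 ± 0.43% in premalignant cells (n = 5) and 7.92 ± 0.23% in lymphomas (n = 13). The median log2 intensity over the members was 12.53 ± 0.034, 12.58 ± 0.041 and 12.60 ± 0.053 at the same stages. Both measures overlapped between neighbouring stages. Over the whole course, all lymphomas but replicate 1 (7.36%) had a share above that of the highest wild type array (7.63%). The Myc probe set, which checks the labels, measured 7.04 ± 0.27, 9.97 ± 0.26 and 9.59 ± 0.59, with no wild type array within the range of the others. GCRMA brings all arrays to a common distribution, so that a change shared by most transcripts would not show in these values.

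**Figure D1:**
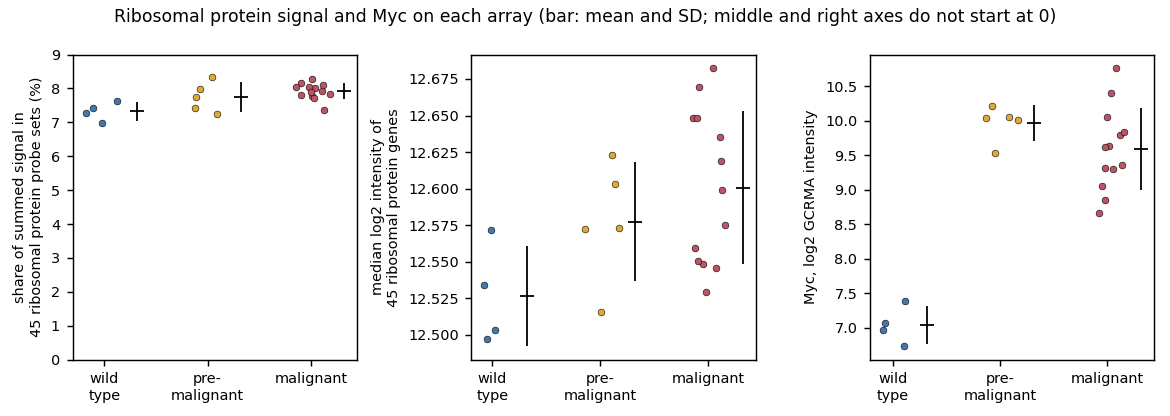
Each point is 1 array, by stage, with the mean and SD beside it; the left axis is the percent of summed signal in the 45 ribosomal protein probe sets, the middle axis their median log2 intensity and the right axis Myc in log2 intensity. Myc separates wild type from Eμ-Myc arrays, while the ribosomal protein share runs only between 6.97% and 8.33% over all 22 arrays.

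Some features of the arrays bear on all comparisons. Wild type replicate 2 and premalignant replicate 1 resembled the other arrays of their groups least (mean correlation 0.957 and 0.938). The 3′ probe set of beta-actin, a sign of RNA integrity and labelling, exceeded the 5′ probe set by 1.29 to 2.49 log2 units in lymphomas and by 0.58 to 0.86 in the other 9 arrays. Of 9 B cell markers 8 were on the array, with a summed log2 signal of 14.6 to 14.9 in wild type, 14.1 to 14.4 in premalignant and 11.9 to 13.3 in malignant arrays, and Pax5 lay below log2 4 on all of them. The 5 plasma cell markers summed to 11.4 to 12.2 in wild type, 10.3 to 11.6 in premalignant and 7.76 to 9.84 in malignant arrays, and the 6 stromal and endothelial markers to 7.97 to 8.16, 6.93 to 7.50 and 8.16 to 11.8. The 8 neutrophil markers spanned 6.29 to 9.33 in wild type, 8.82 to 9.87 in premalignant and 6.09 to 12.6 in malignant arrays. The 4 natural killer markers on the array summed to 5.24 to 7.46 in wild type, 4.88 to 8.61 in premalignant and 4.49 to 4.68 in malignant arrays, and the 5 erythroid markers to 5.39 to 9.39, 5.30 to 11.0 and 5.07 to 5.37, these natural killer and erythroid markers all lying below log2 4 on every lymphoma array. The 6 monocyte markers gave 9.54 to 10.9, 8.57 to 10.4 and 9.34 to 12.1, and the 7 T cell markers 5.80 to 5.96, 5.74 to 6.40 and 5.60 to 5.96. In bulk samples, fewer cells of a type and less RNA per cell cannot be told apart, and the part these differences had in the results was not tested.

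Premalignant cells were first set against wild type cells, populations that also differed in the B cell and plasma cell marker signal given above. The ribosomal protein genes as a group moved little: 3 of 45 rose (Rpl14, Rps27l and Rps6) and 0 fell at an adjusted p under 0.05 (limma, over 6437 genes), where 12.7% of all tested genes rose and 14.1% fell. At an unadjusted p under 0.05, 6 were higher and 0 lower. Shares of all genes at an unadjusted p were not counted, here or below. The median log2 change of the members was 0.080, against -0.054 over all tested genes, and their median change irrespective of sign was 0.13, against 0.34. The fits were somewhat tighter for the members, with a median SE of 0.14 against 0.19. None of the 33 canonical members above log2 10 (paralogues and pseudogene left out) passed, 3 of them being higher and 0 lower at an unadjusted p under 0.05. For 29 of these 33 the 95% interval of the change lay within 1.5-fold in either direction, and the others were Rps26, Rplp0, Rps9 and Rps20. The median of all members was 0.046 without wild type replicate 2 and 0.080 with it.

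Rps27l, a small subunit paralogue known in human cells as a p53 target, rose in every premalignant sample. Its log2 intensity was 9.68, 9.91, 9.79, 9.82 and 9.38 in premalignant cells, against 8.66, 8.64, 8.23 and 8.75 in wild type cells. The groups did not overlap, and the increase was 2.21-fold (log2 change 1.14 ± 0.16 SE, adjusted p = 6.2e-04). All 3 probe sets of the gene rose, by log2 1.13 to 1.14. Rpl14, a large subunit protein, measured 5.50, 6.06, 6.02, 5.41 and 5.67 in premalignant cells and 5.17, 4.33, 3.94 and 3.99 in wild type cells. Here too the groups did not overlap, and the increase was 2.59-fold (1.37 ± 0.26, adjusted p = 0.0035), but at a dim level where 2 wild type arrays were below the filter's log2 4. Rps6, the small subunit protein phosphorylated by S6 kinases, was read through 1 rather dim probe set (mean log2 7.70), the only one kept. Rps6 measured 8.21, 7.69, 7.91, 7.83 and 7.68 against 7.42, 7.66, 6.89 and 6.89 in wild type cells. It rose 1.57-fold (0.65 ± 0.19, adjusted p = 0.031) with a gap between the groups of only 0.02 log2 units, and the call was lost when any of 5 arrays was left out: wild type replicates 3 and 4 and premalignant replicates 1, 3 and 4 (adjusted p = 0.052 to 0.091).

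Other members separated the groups without passing the test over all genes. In all, 5 of 45 members were higher in each premalignant array than in any wild type array, as were 11.2% of all tested genes, and 0 were lower (13.0% of all). Besides the 3 above these were Rps26 and Rpl41, of which Rpl41, a very short protein of the large subunit, falls outside the rule for named genes and was chosen after its values were seen. Rps26, a gene mutated in the human anaemia named after Diamond and Blackfan, measured 12.50 to 12.69 in premalignant and 12.06 to 12.40 in wild type cells (log2 change 0.36 ± 0.12, adjusted p = 0.055). Rplp0, the protein on which the P stalk is built, measured 13.26, 13.44, 13.64, 13.64 and 13.64 against 13.10, 13.05, 13.29 and 13.25 (0.35 ± 0.13, adjusted p = 0.072). Premalignant replicate 1 was its lowest transgenic array and the only one to overlap wild type. With premalignant replicate 1 and wild type replicate 2 both left out, an alternative added after seeing the data, 5 members rose and 0 fell, Rplp0 and Rpl22l1 being the additions. Of all tested genes 12.7% rose and 13.8% fell in that fit.

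Lymphomas against premalignant cells addressed the step to malignancy, at which 42.1% of all tested genes changed. Of the 45 members 3 rose (Rpl12, Rps25 and Rps27l; 24.8% of all genes rose) and Rps19 alone fell (17.3% of all genes fell). The median log2 change of the members was 0.057, against 0.089 over all genes, and their median change irrespective of sign was 0.097, against 0.38. The median was 0.011 and 0.026 without premalignant replicate 1 or 2, and 0.029 and 0.036 without malignant replicate 5 or 13. Of the 33 canonical bright members 31 had a 95% interval within 1.5-fold, the exceptions being Rps9 and Rps19.

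Rps19 codes for a small subunit protein that is a frequent target of mutation in the same anaemia. It measured 12.24 to 12.72 in the lymphomas (median 12.54), against 12.81, 12.96, 12.93, 12.93 and 12.92 in premalignant cells. It was the only member whose groups did not overlap at this step, as 0 members were higher in every lymphoma (6.28% of all genes were) and 1 was lower (5.93%). The decrease was 1.34-fold (log2 change -0.42 ± 0.090, adjusted p = 9.9e-04). The level in wild type cells was 13.01, 12.71, 12.56 and 12.67, which overlapped the lymphomas (change -0.25 ± 0.11, adjusted p = 0.056). The call held when each array was left out in turn but not with centring on the hybridisation spikes (adjusted p = 0.37) or with the beta-actin covariate (0.44).

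Rpl12 sits at the base of the P stalk, and Rps25 is a small subunit protein needed for some forms of internal initiation. Rpl12 measured 6.41 to 7.68 in lymphomas (median 7.00), against 6.49, 6.08, 5.90, 5.74 and 6.39 in premalignant cells. It rose 1.85-fold (log2 change 0.89 ± 0.18, adjusted p = 5.3e-04) with slight overlap of the groups. Rps25 measured 7.18 to 8.38 in lymphomas (median 7.96), against 6.65, 6.89, 7.19, 7.32 and 7.39 in premalignant cells. It rose 1.73-fold (0.79 ± 0.17, adjusted p = 9.4e-04), also with overlap. Rpl12 and Rps25 each rest on 1 rather dim probe set (mean log2 6.68 and 7.58), with no brighter one of the same gene to set beside it. Rps27l rose further, to 9.57 to 10.67 in lymphomas (median 10.16), by 1.35-fold (0.43 ± 0.16, adjusted p = 0.041), but this call was lost in 16 of 32 other settings, among them leaving out premalignant replicate 1, 3, 4 or 5 (adjusted p = 0.058 to 0.13) or malignant replicate 1, 3, 5, 6, 7, 8 or 10 (0.051 to 0.058). With the beta-actin 3′ to 5′ difference as a covariate, 0 members rose and 0 fell at this step, while of all tested genes only 1.91% rose and 3.08% fell in that fit, so that the absence of member calls is close to what all genes gave. The difference itself separates lymphomas from premalignant arrays without overlap.

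Over the whole course, lymphomas against wild type cells, 13 of 45 members rose and 2 fell, where 31.8% of all tested genes rose, 29.7% fell and 61.5% did either. The median log2 change was 0.14, against 0.041 over all genes, and the median change irrespective of sign 0.21, against 0.62. The rise was widespread in sign among the bright canonical members but small: 27 of 33 had a fitted change above 0, as had 51.9% of all tested genes, and 7 of them passed the test. These 7 are 21.2% of the 33, beside rises in 31.8% of all tested genes and 46.8% of all probe sets above log2 10. For 29 of the 33 the 95% interval lay within 1.5-fold, and the others were Rplp0, Rpl41, Rpl4 and Rps9. The count of 13 was 8 without wild type replicate 3 or 4 and 10 without replicate 2, and the median was 0.071 without replicate 2. Of all tested genes 28.1%, 28.2% and 30% rose without wild type replicate 3, 4 and 2. With the beta-actin covariate 3 members rose (Rplp0, Rpl41 and Rps27l) and 0 fell, and the shares of all tested genes dropped as well, to 14.4% higher and 14.8% lower.

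**Figure D2:**
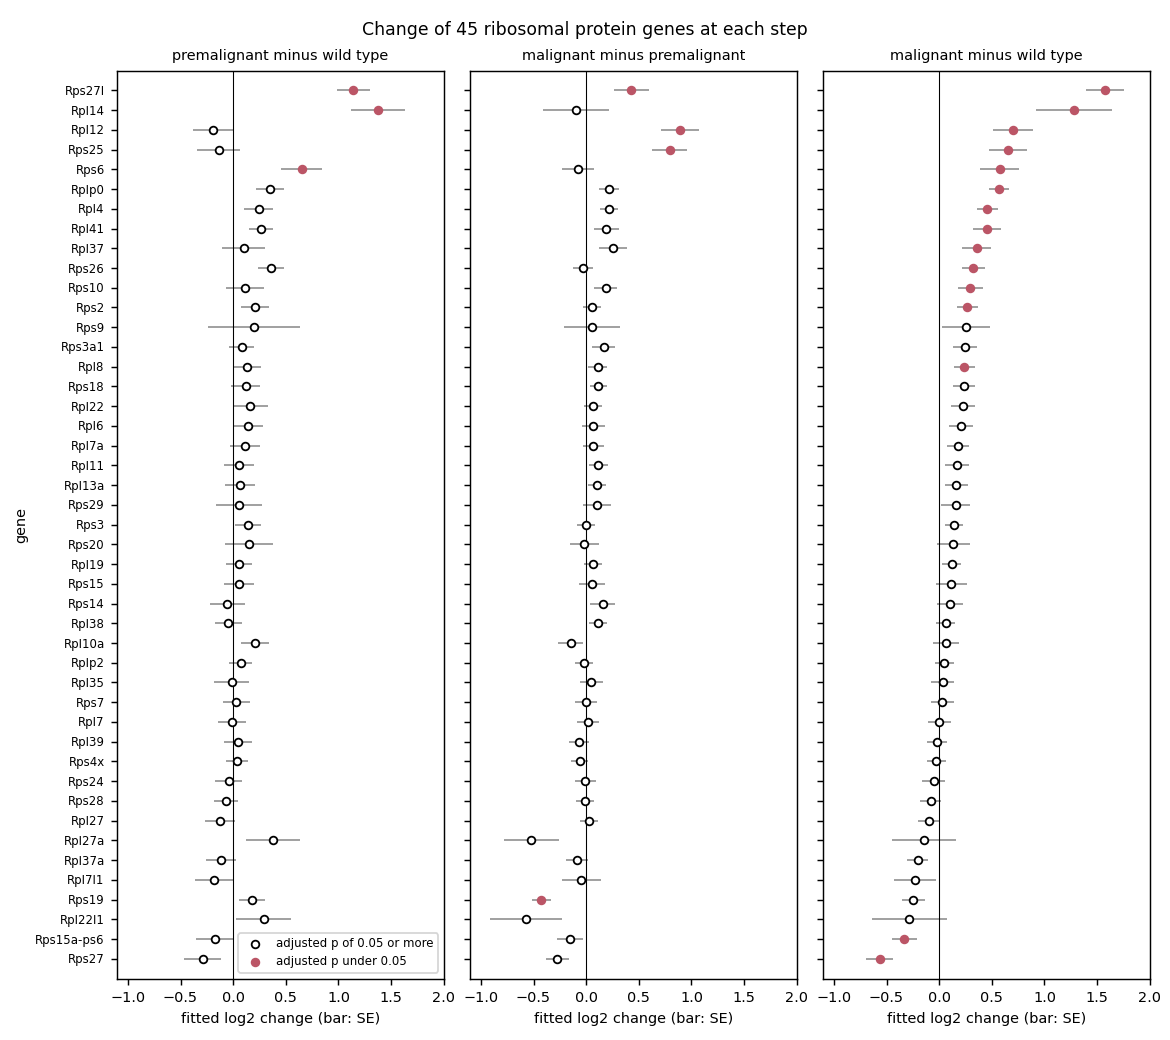
The horizontal axis is the fitted log2 change (bars are SE) of each of the 45 tested genes, ordered by the change between lymphomas and wild type cells, in the 3 comparisons; filled points have an adjusted p under 0.05. Most genes lie within 0.3 of 0 in every panel, with Rps27l and Rpl14 at the top and Rps27 at the bottom.

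The members with groups wholly apart were Rps27l, Rplp0 and Rpl4 above (3 of 45, 18.3% of all genes) and Rps27 below (1 of 45, 15.5% of all genes). Rps27l reached 2.97-fold (log2 change 1.57 ± 0.18, adjusted p = 6.5e-07). Rplp0 measured 13.54 to 13.96 in lymphomas (median 13.72), against 13.05 to 13.29 in wild type cells, an increase of 1.48-fold (0.57 ± 0.097, adjusted p = 5.9e-05) that held in all 31 other settings. Its partner Rplp2 measured 13.18 to 13.61 (median 13.47) in lymphomas and 13.26 to 13.53 in wild type cells, with a change of 0.051 ± 0.092 (adjusted p = 0.65). Rpl4, whose protein lines the exit tunnel, falls outside the rule for named genes and was chosen after its values were seen. It measured 13.22 to 13.49 in lymphomas (median 13.32), against 12.97, 12.60, 12.93 and 13.11 in wild type cells, 1.37-fold higher (0.46 ± 0.10, adjusted p = 6.7e-04). Rps27, a zinc finger protein of the small subunit, measured 4.27 to 4.73 in lymphomas (median 4.54), against 4.83, 5.51, 4.92 and 4.97 in wild type cells. It was 1.48-fold lower (-0.56 ± 0.13, adjusted p = 0.0011), through a dim probe set close to the filter's level, and did not pass with spike centring (adjusted p = 0.62) or the beta-actin covariate (0.083).

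**Figure D3:**
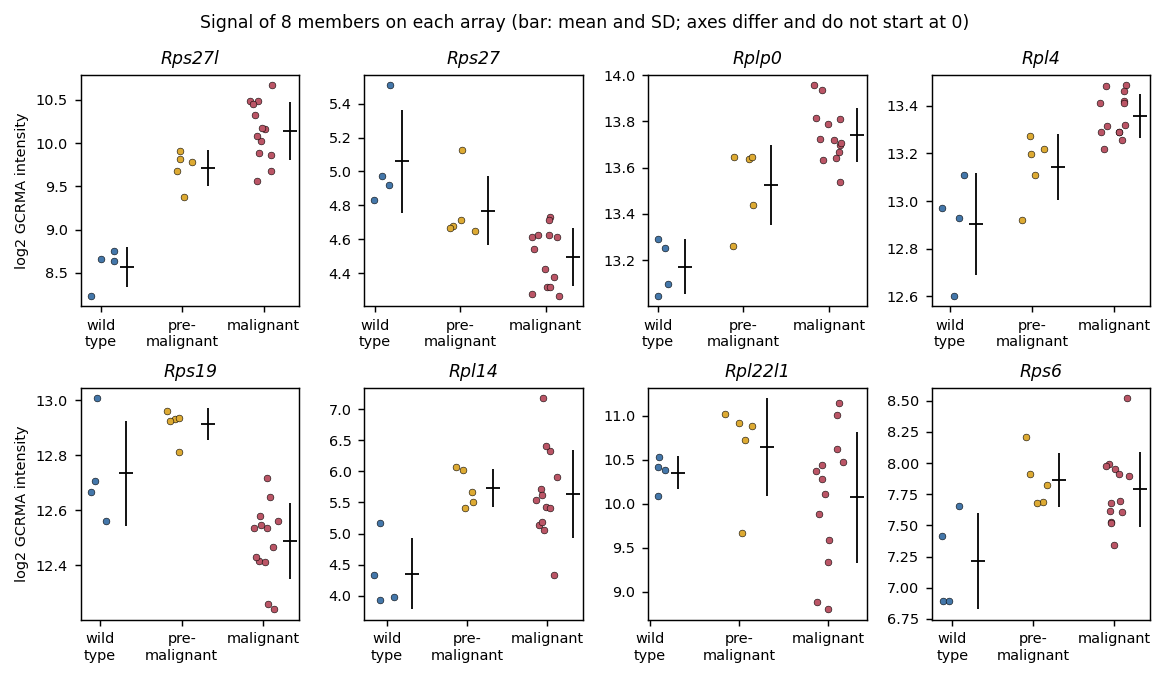
Each point is 1 array and each panel 1 gene, with log2 intensity on the vertical axis (scaled separately and not from 0) and the mean and SD beside the points, by stage. Rps27l, Rplp0 and Rpl4 lie higher and Rps27 lower in all lymphomas than in any wild type array, Rps19 is lower in all lymphomas than in any premalignant array, and Rpl22l1 spreads from 8.80 to 11.15 among lymphomas.

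The remaining named rises over the whole course came from Rpl14 (2.42-fold, adjusted p = 0.0052), Rpl12 (1.63-fold, 0.0033), Rps25 (1.57-fold, 0.0050), Rps6 (1.49-fold, 0.011) and Rps26 (1.25-fold, 0.013). The calls of Rps6 and Rps26 were lost without wild type replicate 3 or 4 (adjusted p = 0.054 to 0.060). The pseudogene Rps15a-ps6 was called lower (log2 change -0.33 ± 0.12, adjusted p = 0.022), at 3.63 to 4.36 in lymphomas and 4.28 to 4.65 in wild type cells, around the filter's level. The call was lost without wild type replicate 2 (adjusted p = 0.10), with median centring (0.12), quantile normalisation (0.10) or the beta-actin covariate (0.30), and with spike centring its change was 0.063, the reverse direction. The rest that rose (Rpl41, Rpl37, Rps10, Rps2 and Rpl8) changed by log2 0.24 to 0.46.

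Of the 13 tested members chosen as P stalk genes or for a role outside the ribosome or in disease, 4 passed in at least 1 comparison (Rps6, Rps19, Rps26 and Rplp0, described above). Read through the brightest probe set of each gene, the other 9 passed in none, with limma changes of -0.053 to 0.23 and adjusted p of 0.097 to 0.99. Some dimmer probe sets of Rps24 and Rpl13a did pass, as given below. Among these 9, Rpl11, which binds the p53 inhibitor Mdm2 when ribosome assembly fails, measured 11.63 to 12.09 in lymphomas and 11.43 to 12.01 in wild type cells, with a change of 0.17 ± 0.11 (adjusted p = 0.19). Rps7, another Mdm2 binder, changed by 0.028 ± 0.11 (adjusted p = 0.83), and its 95% interval ran from -0.20 to 0.26. Rps3, which also takes part in DNA repair, changed by 0.14 ± 0.085 (adjusted p = 0.16). Rpl38, needed in mice for translation of Hox mRNAs, changed by 0.064 ± 0.090 (adjusted p = 0.55), and Rps20 by 0.13 ± 0.16 (0.48). The tests do not show that these transcripts were unchanged.

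Among paralogues, the signal of Rps27l relative to that of Rps27 shifted at each step. Rps27 was read through 1 dim probe set alone, with a mean log2 intensity of 4.66, close to the filter's log2 4. Within an array, the log2 signal of Rps27l exceeded that of Rps27 by 3.51 ± 0.34 in wild type cells (SD, n = 4), by 4.95 ± 0.32 in premalignant cells (n = 5) and by 5.65 ± 0.48 in lymphomas (n = 13). The size of the difference depends on the probes, so that only its change is compared. Premalignant minus wild type was 1.43 (exact permutation test, two-sided, p = 0.016, the smallest this design allows; adjusted p = 0.048 over 9 tests of 3 pairs). Malignant minus premalignant was 0.70 (exact p = 0.0075, adjusted p = 0.034) and malignant minus wild type 2.14 (exact p = 8.4e-04, the smallest possible; adjusted p = 0.0076). The first of these calls was lost when any 1 of the 9 arrays was left out (adjusted p = 0.064 to 0.11), which also raises the smallest possible p, and the second without premalignant replicate 1, 3 or 5 (0.053 to 0.086). Both were lost under quantile normalisation (adjusted p = 0.071 and 0.073).

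Rpl22l1 and Rpl22 form a pair in which, in mice, Rpl22 holds back Rpl22l1. Rpl22 measured 11.24 to 11.94 in wild type cells, 11.67 to 12.05 in premalignant cells and 11.80 to 12.14 in lymphomas. Rpl22l1 measured 10.38, 10.09, 10.53 and 10.42 in wild type cells, 9.67, 10.89, 10.73, 10.92 and 11.02 in premalignant cells, and 8.80 to 11.15 in lymphomas (median 10.28). Its SD over the lymphomas, 0.74, was the largest of any tested member. The within-array difference between them was lower by 0.64 in lymphomas than in premalignant cells and did not pass (exact permutation test p = 0.081, adjusted p = 0.18). For Rpl7l1 against Rpl7 it was lower by 0.062 (exact p = 0.73, adjusted p = 0.73). In the other comparisons the adjusted p for these pairs was 0.31 to 0.70.

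From lymphoma to lymphoma most ribosomal protein transcripts varied little. The median SD over the 13 lymphomas was 0.13 for the 34 members above log2 10, against 0.27 for the 183 other genes above that level and 0.33 for all tested genes. After Rpl22l1, the members that varied most were Rpl14 (SD 0.71, from 4.34 to 7.17) and Rpl27a, a large subunit protein (SD 0.58, from 6.04 to 8.21). Rpl39, which lines the exit tunnel, is dim too but had 5.19 to 5.62 in lymphomas and 5.30 to 5.53 in wild type cells. Pairs of bright members had a median Pearson r of 0.079 across the lymphomas, against 0.0070 for pairs of all tested genes. These are descriptions over 13 arrays that share 1 normalisation.

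The 19 genes with several kept probe sets did not always give 1 answer. Over all 87 probe sets, adjusted over 9832, 7 rose and 0 fell between premalignant and wild type cells (12.8% and 12.0% of all). At an unadjusted p under 0.05, 11 were higher and 1, of Rps10, lower. Of these, 1 of the 64 probe sets above log2 10 rose and 0 fell (23.1% and 5.84% of all at that level), and 4 of the 64 were higher and 0 lower at an unadjusted p under 0.05. Between lymphomas and premalignant cells 9 rose and 4 fell (23.6% and 20.0% of all, 43.6% either way). Between lymphomas and wild type cells 23 rose and 5 fell (30.5% and 30.4% of all, 60.9% either way), of which 9 and 3 were above log2 10 (46.8% and 17.2% of all at that level) and 14 and 2 at or below it (30.0% and 30.8%). Among the probe sets called at the step to malignancy, the direction followed the brightness. All 9 that rose were among the 23 probe sets at log2 10 or less (23.5% of all probe sets at that level rose and 20.1% fell). All 4 that fell were among the 64 above it (15.6% of all at that level fell). Rises among all bright probe sets were common (25.3%), yet 0 of the 64 rose, with 2 higher at an unadjusted p under 0.05. Of the 23 dimmer ones 2 were lower at that threshold, of Rpl7l1 and Rps27.

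Rps9 and Rps24 showed the contrast within 1 gene, and Rps9 falls outside the rule for named genes and was chosen after its values were seen. The dim probe set of Rps9 measured 5.72 to 7.68 in lymphomas (median 6.81), against 4.21, 5.08, 4.83, 4.12 and 4.75 in premalignant cells, with no overlap (log2 change 2.19 ± 0.25, adjusted p = 1.6e-06). Its other probe sets, both above log2 10, changed by 0.057 and -0.18 and did not pass. The dim probe set of Rps24 measured 4.85 to 6.25 in lymphomas (median 5.40), against 4.26, 4.32, 4.10, 3.89 and 4.04 in premalignant cells, again with no overlap (1.32 ± 0.20, adjusted p = 4.2e-05). A pair of bright Rps24 probe sets fell, with changes of -0.48 (adjusted p = 0.0051) and -0.35 (0.039), and the brightest, which stands for the gene in the fits above, changed by -0.0089. Rps24 was the only gene called both ways. Rpl13a, a large subunit protein that in human cells also silences inflammatory mRNAs, had 4 probe sets, of which the 2 dimmer ones rose in premalignant cells (log2 change 0.59, adjusted p = 0.0064, and 1.00, adjusted p = 0.048) while the 2 brighter ones changed by 0.061 and -0.070. Ribosomal proteins have many processed pseudogenes, and 40 of the 87 probe sets carry a suffix (_x_at or _s_at) for probes that can match other transcripts. The position of the probes in the genes was not used here, and what sets these probe sets apart was not tested.

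**Figure D4:**
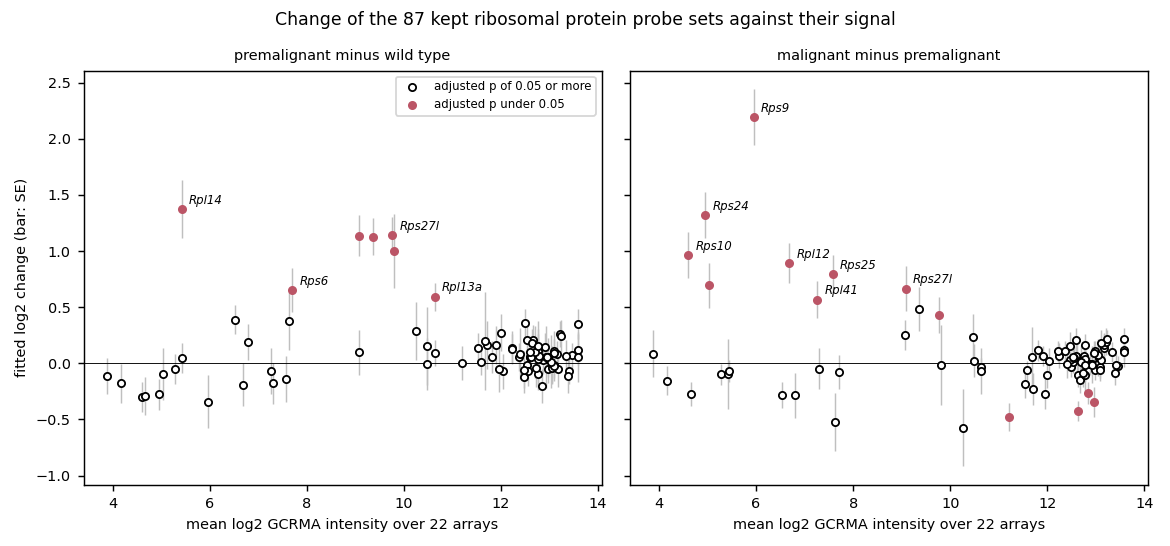
Each point is 1 of the 87 kept ribosomal protein probe sets, with its mean log2 intensity over 22 arrays on the horizontal axis and its fitted log2 change (bar is SE) on the vertical axis, for premalignant minus wild type and malignant minus premalignant; filled points have an adjusted p under 0.05 and those changed by more than 0.55 are named, once per gene. In the right panel the filled points above 0 are all dim and those below 0 all bright.

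A list of ribosome assembly factors rose far more often than the ribosomal proteins in the same arrays. The list was chosen with earlier results of these data known, so its shares are a description and not a test. Of 32 assembly factors 29 were tested, and 24 of 29 rose in premalignant against wild type cells, 27 in lymphomas against premalignant cells and 29 in lymphomas against wild type cells, with 0 falling. Every fitted change was above 0, so that at an unadjusted p under 0.05 the falls were 0 as well. The rises made up 82.8%, 93.1% and 100% of the 29, beside 12.7%, 24.8% and 31.8% of all tested genes. Median log2 changes of the factors were 0.81, 0.69 and 1.48. Ncl, the nucleolar protein nucleolin, rose by 0.83, 0.65 and 1.48 in these comparisons, and Nop56, a core protein of the box C/D particles that methylate ribosomal RNA, by 0.65, 1.08 and 1.72. The 74 mitochondrial ribosomal proteins rose in 25, 22 and 55 cases and fell in 0, 1 and 1 (0, 4 and 1 at an unadjusted p under 0.05), with medians of 0.45, 0.27 and 0.69. Their rises made up 33.8%, 29.7% and 74.3% of the list, so that the share lay near the 24.8% of all genes in the second comparison. Falls were 0%, 1.35% and 1.35%, beside 14.1%, 17.3% and 29.7% of all tested genes. These lists were not tested against the ribosomal proteins.

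**Figure D5:**
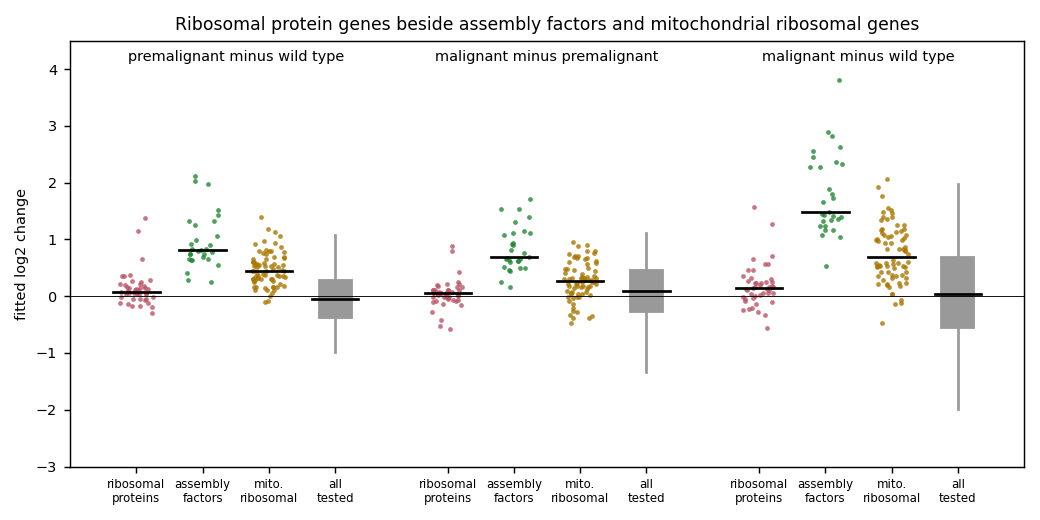
The vertical axis is the fitted log2 change; each point is 1 gene of the ribosomal protein, assembly factor or mitochondrial ribosomal protein lists, black lines are medians, and for all 6437 tested genes the box spans the middle 50% and the line the middle 90%. Ribosomal proteins cluster near 0 in each of the 3 comparisons, while assembly factors lie above 0 (medians 0.81, 0.69 and 1.48).

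Of 18 other genes whose mRNAs carry the oligopyrimidine tract, among them Npm1, which is also on the assembly factor list, 17 were tested. They rose in 4, 5 and 7 cases and fell in 0, 3 and 1 (also 0, 3 and 1 at an unadjusted p under 0.05), with medians of 0.23, 0.0035 and 0.17 in premalignant against wild type, lymphoma against premalignant and lymphoma against wild type comparisons. These are 23.5%, 29.4% and 41.2% higher and 0%, 17.6% and 5.88% lower, beside 12.7%, 24.8% and 31.8% higher and 14.1%, 17.3% and 29.7% lower among all tested genes, so that the list lay near all genes in the second comparison. The translation elongation factor Eef1a1 changed by 0.094, -0.0044 and 0.090 and passed in none. The noncoding snoRNA host genes Gas5 and Snhg1 rose in all 3, by 0.51, 0.30 and 0.81 and by 1.12, 0.40 and 1.52. Of ribosomal proteins outside the symbol pattern, Rpsa was higher by 0.39 (adjusted p = 0.014) and Fau, which encodes a fusion with a ubiquitin-like protein, lower by -0.63 (adjusted p = 1.8e-04) in lymphomas than in wild type cells.

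Changes of other transcripts as bright were mixed in size. The 16 other genes above log2 12, among them the ribosomal proteins Rpsa and Fau, ran from -2.01 to 1.56 in lymphomas against wild type cells, with a median change irrespective of sign of 0.67, beside 0.15 for the 30 members above that level. Of the 16, 5 rose and 6 fell, which is 31.3% and 37.5%, beside 31.8% and 29.7% of all tested genes. Several moved no more than the members, such as Tpt1, the translationally controlled tumour protein (-0.046), and Eef1a1 (0.090). At the ends Eif5a, the hypusinated translation factor, rose by 1.56, and the immunoglobulin gene Ighm fell by 2.01. The 102 probe sets with several symbols, of which 95 passed the filter, had median differences of 0.11, 0.025 and 0.16 in premalignant against wild type, lymphoma against premalignant and lymphoma against wild type comparisons, beside 0.080, 0.057 and 0.14 for the members.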

How the data were processed

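Per the submitters' processing notes, the authors made the deposited values with GCRMA, which removes a sequence-dependent background, brings the arrays to a shared distribution and condenses probes into probe sets. The sources used here do not give its version. The deposited values are intensities on a linear scale, and log2 of these deposited values was taken here. The number of arrays (4, 5 and 13) limits the precision.

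The tests left out 64 control probe sets. Of the others 20380 (89.8%) had 1 gene symbol, 691 had several and 1555 had none. After the filter, 9832 probe sets with 1 symbol stood for 6437 genes. The 2 groups of a comparison were fitted apart from the third with limma 3.58.1 (lmFit, eBayes, two-sided) in R 4.3.3, and p-values were adjusted by Benjamini-Hochberg over all genes, or over all probe sets. Fits were tested on simulated data. Paralogue pairs were compared by exact permutation of arrays (scipy 1.17.1). Same-numbered arrays of different groups did not deviate together in every pair (correlations from -0.11 to 0.21), so the numbers were not treated as pairing samples. Between premalignant and wild type arrays the same-numbered pairs ran from -0.064 to 0.21 (mean 0.11). The other pairs there ran from -0.39 to 0.48 (mean -0.019).

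The members and lists were chosen with earlier results of these data known. Named genes are, in each comparison, the 4 largest rises and falls among called members, paralogues with their parents, the 3 members with the largest SD among lymphomas, P stalk genes, and members with roles in p53 control, disease or signalling. Alternatives were other filters, probe set choices, scalings, offsets, weights, a beta-actin covariate, a replicate block and leaving out each array. Marker lists covered B, T, natural killer, plasma, erythroid, neutrophil, monocyte, and stromal cells.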

Additional observations from a re-analysis of the deposited data

Results flagged for a closer look

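Outlying arrays were looked for in 52 groups of 4 or 5 arrays over the named members, with Dixon's test at its 95% critical value, under which chance flags about 1 in 20 groups. The test picked out 6, all of them premalignant replicate 1, which also resembled its group least. Rpl22l1 was lowest there at log2 9.674, with the next array at 10.73. Rpl7 (12.23, next 12.57), Rps20 (12.21, next 12.89) and Rps19 (12.81, next 12.92) were lowest there too. Rpl39 (5.789, next 5.47) and Rps27 (5.128, next 4.714) were highest there. Being the same array, the 6 are not independent of each other.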

How the results depend on the processing

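The rises of Rps27l and Rpl14 in premalignant cells and of Rps27l and Rplp0 in lymphomas against wild type cells passed under all alternatives. Counts of members that rose or fell depended more on the settings. Premalignant against wild type, 3 rose, and 5 did in 1 fit over 3 groups, 6 with an offset of 16, and 5 without wild type replicate 2 and premalignant replicate 1 (chosen after the data were seen). In lymphomas against premalignant cells 3 rose and 1 fell, and the counts were 5 and 3 with no filter, 6 and 2 averaging each gene's probe sets or with plain and _a_at probe sets only, 8 and 1 with median centring, 2 and 0 with spike centring, 4 and 2 with array weights, 5 and 1 with an offset of 16, and 0 and 0 with the beta-actin covariate. In lymphomas against wild type cells 13 rose and 2 fell, and the counts were 17 and 6 with no filter, 13 and 0 with the filter at log2 6, 14 and 4 averaging probe sets, 23 and 1 with median centring, 14 and 0 with spike centring, 15 and 4 with an offset of 16, 10 and 1 without the 2 arrays above and 3 and 0 with the beta-actin covariate. The shares of all genes called moved with some of these settings and little or not at all with others. In premalignant against wild type cells 12.7% of all genes rose and 14.1% fell. The shares were 11.7% and 11.5% in 1 fit over 3 groups, 12.7% and 14.6% with an offset of 16, and 12.7% and 13.8% without the 2 arrays. In lymphomas against premalignant cells 24.8% of all genes rose and 17.3% fell, against 31.7% and 14.1% with median centring, 18.8% and 8.73% with spike centring, 13.2% and 26.5% with no filter and 1.91% and 3.08% with the beta-actin covariate. In lymphomas against wild type cells 31.8% and 29.7% did, against 36.9% and 24.2%, 36.5% and 12.2%, 17.1% and 46.8%, and 14.4% and 14.8% under the same settings. Averaging each gene's probe sets, 23.5% of all genes rose and 19.1% fell in lymphomas against premalignant cells. With plain and _a_at probe sets only, 24.2% rose and 17.8% fell. Members that rose went from 3 to 6 there. The causes were not tested.

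The median log2 change of the members followed the scaling. With spike centring it was 0.34, 0.19 and 0.54 in premalignant against wild type, lymphoma against premalignant and lymphoma against wild type comparisons, while the median of all genes was 0.20, 0.22 and 0.43. With median centring it was 0.16 and 0.28 in the comparisons with lymphomas, beside 0.19 and 0.18 for all genes. With the beta-actin covariate it was 0.14 in the first comparison, and without the 2 arrays 0.071 in the last. Leaving out each array in turn gave medians of 0.046 to 0.11, 0.011 to 0.058 and 0.071 to 0.17, with 2 to 4, 2 to 4 and 8 to 14 members rising and 0, 1 to 2 and 1 to 3 falling. Of all tested genes 9.54% to 13.9%, 18.9% to 25.2% and 28.1% to 32% rose in those fits. Falls were 10.5% to 15.2%, 15% to 17.6% and 26.2% to 29.8% of all. The second fall among members at the step to malignancy, of Rps27, came without malignant replicate 2, 4 or 11. Spike centring turned the change of Rps15a-ps6 to 0.063.

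The shift of Rps27l against Rps27 was 1.42 and 0.60 under quantile normalisation in the first 2 comparisons (adjusted p = 0.071 and 0.073). Without single arrays it was 1.30 to 1.54 and 0.60 to 0.77, and fewer arrays raise the smallest p that the test can give. The first call was lost without any 1 array, the second without premalignant replicate 1, 3 or 5 (adjusted p = 0.053 to 0.086). With the replicate number as a block, 4 members rose and 0 fell in lymphomas against wild type cells, on fewer arrays, 2 and 1 (the fall being of Rpl27a) in lymphomas against premalignant cells and 2 and 0 in premalignant against wild type cells. The block also ended the calls of Rps19 in lymphomas against premalignant cells (adjusted p = 0.090) and of Rps27 and Rps15a-ps6 in lymphomas against wild type cells (0.075 and 0.19), on fewer arrays. It called 15.1% of all genes higher and 10.9% lower at the step to malignancy, and 24.7% and 20.4% over the whole course. In premalignant against wild type cells these shares were 11.9% and 10.1%.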
